A study of Mus musculus and Homo sapiens with 17 samples.

Results

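Papillomas are benign outgrowths of the epidermis that arise in mouse skin after a carcinogen (DMBA) and repeated application of a tumour promoter, the phorbol ester TPA. Bulk RNA-seq of 3 papillomas labelled DUSP1 KO was set against 3 samples of WT skin, all labelled as treated with DMBA and TPA and all from mice given as C57BL/6-129. These 6 libraries were taken by their labels from 17 in the series. The remaining mouse libraries, 3 of WT squamous cell carcinoma (SCC) and 2 of SCC labelled KO from the same regimen, entered the fit and are used below where the papillomas are set against a tumour. RNA came from full sections of frozen tissue, so every cell type in the section contributed, although the labels name keratinocytes. The keratinocyte markers Krt14 and Krt5 were present in all 6 libraries, and so were markers of fibroblasts, vessels, immune cells and nerve sheath. The WT skin also held skeletal muscle, and it held more fat transcripts than the papillomas, in which these were present too. The labels give neither the allele of Dusp1, the age and sex of the animals, the doses, nor whether libraries came from separate animals. The p-values therefore measure the spread between samples, pooled over all mouse libraries in the fit, the SCC included. Genotype and lesion change together between these groups, and their parts cannot be told apart here. In bulk tissue, fewer cells of a type and less RNA per cell cannot be told apart either.

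The TPA-treated epidermis thickens, expresses the activation keratins and remodels its cornified envelope, the protein and lipid shell of dead surface cells. DMBA typically leaves an activating mutation in Hras, and papillomas grow from cells in which signalling from EGFR through RAS, the kinases MEK and ERK and the transcription factor AP-1 is raised. DUSP1 is a nuclear phosphatase that switches off p38, JNK and ERK, and it is itself induced as an immediate early gene.

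Depth was 41098695 to 44365249 counts in the papillomas and 34378300 to 47883625 counts in WT skin. Values are given in CPM, counts scaled to the size of their library, for papillomas 1, 2 and 3 and then for WT skin 1, 2 and 3. CPM is not corrected for gene length, so levels are compared between libraries and not between genes. Pairs of papillomas correlated at 0.961 to 0.972 (Pearson, log2 CPM over all genes tested) and pairs of WT skin libraries at 0.897 to 0.956. The lowest of these was WT skin 1 with WT skin 3, while WT skin 2 correlated with them at 0.953 and 0.956. In its hair shaft keratins WT skin 3 stood apart, far above the other 5 libraries. WT skin 1 and 2 held 6624 and 9552 counts of 4 Y-linked genes, while WT skin 3 held 7 and the papillomas 0, so sex differed within WT skin and partly between the groups. The covariate called Y-linked expression or counts below is a yes or no mark. It is set for WT skin 1, WT skin 2 and SCC labelled KO 2 only. With it, papilloma against skin leans more on WT skin 3, which like the papillomas lacks the mark.

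The label KO could not be read from the Dusp1 transcript. Dusp1 (ENSMUSG00000024190.7, chr17:26505590-26562128, minus strand, GRCm38) had 129, 109 and 109.5 CPM in the papillomas, against 94.1, 109 and 52.3 CPM in WT skin (log2 fold change 0.44 ± 0.23, adjusted p = 0.146, edgeR quasi-likelihood test with Benjamini-Hochberg adjustment over 22371 genes). The groups met without a gap: the lowest value in a papilloma, 109.25 CPM, was level with the highest in WT skin, 109.1 CPM. The counts are per gene, so a deletion or frameshift that leaves the transcript in place would not be visible in them. The papillomas are therefore called by their label throughout.

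The fit called 8850 of 22371 genes (39.6%) at an adjusted p below 0.05, of which 3835 were higher in the papillomas (17.1% of those tested) and 5015 lower (22.4%). A fold change of at least 8 was reached by 243 of the higher and 1243 of the lower genes. The median log2 fold change over all genes was -0.22, and the 2 groups did not overlap for 49.4% of genes. With so many genes called, each count of a gene list below is to be read against these percentages. The 12 largest rises among genes with an average log2 CPM of at least 1 were those of Krt13, Ces1h, Sprr3, Dynlt1b, Hmga2, Tmem63c, Tgm3, Krt76, Krt4, Klk14, Tpsab1 and Sptssb. Most are described with their lists. Ces1h, a carboxylesterase, had 1.49, 10.9 and 6.45 CPM in the papillomas, against 0, 0.0201 and 0 CPM in WT skin, where 1 library held a single count and the others none. Tmem63c, which encodes a membrane channel protein, and Sptssb, a small subunit of the enzyme that starts ceramide synthesis, rose by 6.07 ± 0.4 and 5.25 ± 0.71 on the log2 scale.

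**Figure D1:**
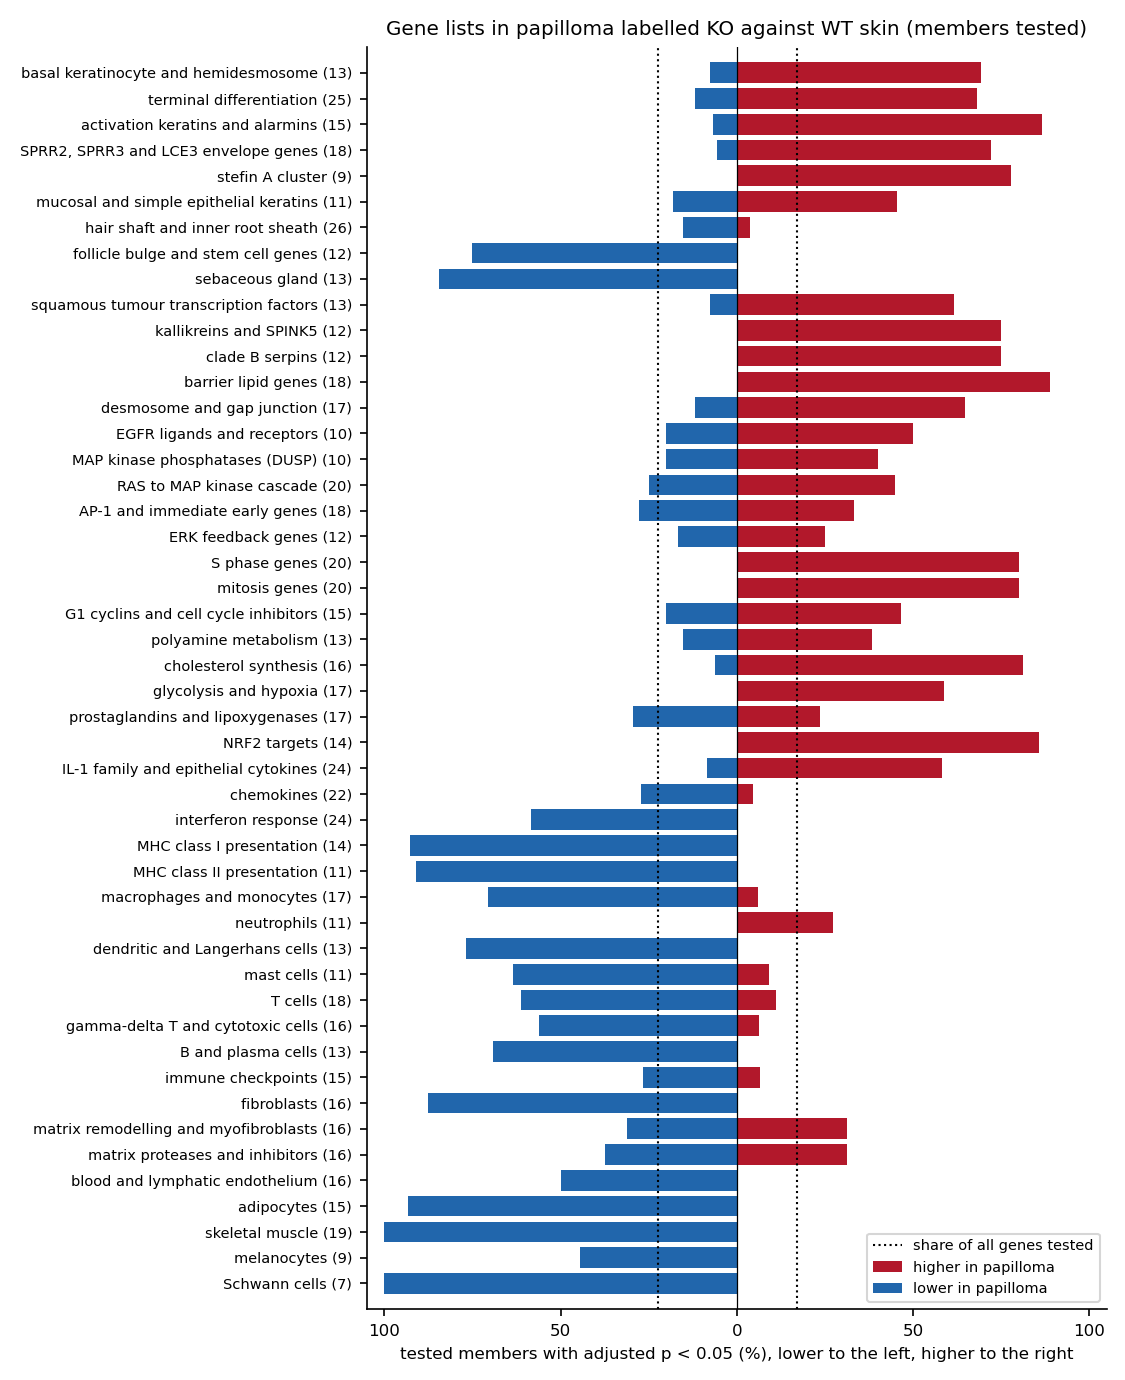
Share of the tested members of each gene list that passed an adjusted p of 0.05 in papillomas labelled KO against WT skin, higher to the right and lower to the left, with the number tested in parentheses. Dotted lines mark the shares over all genes tested, 17.1% higher and 22.4% lower; keratinocyte lists extend to the right, and stromal, adipocyte, muscle, sebaceous and antigen presentation lists to the left.

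Of the 10 MAP kinase phosphatases tested, Dusp1 included, 4 were higher and 2 lower. Dusp5, a nuclear phosphatase for ERK, had 85.5, 71.2 and 82.5 CPM in the papillomas, against 26.3, 22.8 and 23.7 CPM in WT skin (log2 fold change 1.72 ± 0.12, adjusted p = 6.67e-06). Dusp7, a cytoplasmic ERK phosphatase, had 294, 219.8 and 281 CPM in the papillomas, against 67.5, 84.8 and 59.9 CPM in WT skin (log2 fold change 1.9 ± 0.18, adjusted p = 3.15e-05). Neither overlapped between the groups. Dusp9 also rose (log2 fold change 2.14 ± 0.28), and Dusp6, the phosphatase most closely tied to ERK output, had 122, 244 and 329 CPM in the papillomas and 97.4, 55.3 and 87.9 CPM in WT skin. The rise of Dusp6 (log2 fold change 1.53 ± 0.34, adjusted p = 0.00463) no longer passed the test with Y-linked expression as a covariate (adjusted p = 0.0571). Dusp10, which acts on p38 and JNK, fell to 1.91, 1.75 and 2.28 CPM in the papillomas, against 8.91, 6.401 and 13.6 CPM in WT skin (log2 fold change -2.28 ± 0.31, adjusted p = 0.000237). Dusp2 was called lower (log2 fold change -1.66 ± 0.5), with its highest value in WT skin 3, and it lost the call without that library and without any 1 of the papillomas (adjusted p from 0.0526 to 0.117 over 6 settings). Dusp4, Dusp8 and Dusp16 did not pass the test, with log2 fold changes of -0.36, -0.16 and 0.25.

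Sequences just upstream of a RefSeq start are shown first, as examples with and without a match to the motif of AP-1. They are those of Krt13, the gene with the largest rise, and of 5 genes of the cornified envelope. AP-1, the factor that TPA activates, binds the 7-base motif TGACTCA or its reverse complement. Each run is the 250 bases before a RefSeq start of the gene, 5′ to 3′ on the gene's strand in GRCm38.p6, with matches to either form of the motif in capitals. Krt13 has 2 RefSeq promoters, and the choice between them put the one with more matches first. The one shown lies inside the gene as GENCODE places it (chr11:100117327-100121566), so it precedes an internal start. The positions are chr11:100120578-100120827 (minus) for Krt13, chr3:92485882-92486131 (minus) for Sprr1a, chr3:92385435-92385684 (plus) for Sprr2h, chr3:92432332-92432581 (plus) for Sprr2k, chr3:92944236-92944485 (plus) for Lce3c and chr3:93019062-93019311 (minus) for Lce1m.
Krt13: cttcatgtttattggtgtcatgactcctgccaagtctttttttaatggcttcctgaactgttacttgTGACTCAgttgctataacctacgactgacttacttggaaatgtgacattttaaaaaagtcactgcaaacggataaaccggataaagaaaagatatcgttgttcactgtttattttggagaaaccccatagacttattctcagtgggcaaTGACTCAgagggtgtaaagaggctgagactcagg
Sprr1a: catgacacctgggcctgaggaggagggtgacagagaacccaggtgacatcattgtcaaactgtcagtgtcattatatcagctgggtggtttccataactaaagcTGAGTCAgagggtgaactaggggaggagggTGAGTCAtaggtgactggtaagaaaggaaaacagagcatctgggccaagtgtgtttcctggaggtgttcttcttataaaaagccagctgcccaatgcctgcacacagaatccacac
Sprr2h: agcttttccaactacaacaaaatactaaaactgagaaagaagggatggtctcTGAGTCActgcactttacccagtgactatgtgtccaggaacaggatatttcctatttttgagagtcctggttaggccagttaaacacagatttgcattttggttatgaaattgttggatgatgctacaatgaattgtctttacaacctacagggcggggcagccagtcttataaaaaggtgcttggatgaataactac
Sprr2k: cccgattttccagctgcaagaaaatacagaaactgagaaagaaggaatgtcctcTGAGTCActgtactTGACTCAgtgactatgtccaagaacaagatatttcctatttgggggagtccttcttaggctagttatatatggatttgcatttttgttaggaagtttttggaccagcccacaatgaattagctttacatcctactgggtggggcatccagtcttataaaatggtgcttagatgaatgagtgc
Lce3c: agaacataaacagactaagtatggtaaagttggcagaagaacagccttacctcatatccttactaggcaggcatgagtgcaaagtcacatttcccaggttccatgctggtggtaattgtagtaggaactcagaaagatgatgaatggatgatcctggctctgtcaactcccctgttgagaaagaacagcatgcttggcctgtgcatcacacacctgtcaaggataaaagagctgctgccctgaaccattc
Lce1m: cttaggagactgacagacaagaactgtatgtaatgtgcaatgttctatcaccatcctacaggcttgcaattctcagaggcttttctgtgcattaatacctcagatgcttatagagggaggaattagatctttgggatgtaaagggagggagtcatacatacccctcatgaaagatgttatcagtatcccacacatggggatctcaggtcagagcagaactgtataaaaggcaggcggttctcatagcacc
The window of Krt13 held 2 matches, at 183 and 34 bases before that internal start. Sprr1a held 2, at 146 and 116 bases, Sprr2k 2, at 196 and 182 bases, and Sprr2h 1, at 198 bases. Lce3c, which was higher in the papillomas, and Lce1m, which was lower, held none in this window. Over all tested genes with a promoter in the RefSeq table, 671 of 14196 (4.73%) held the motif. The share was 5.52% among genes called higher and 5.44% among genes called lower. The share varied between the lists, and its relation to their direction was not tested. It was 6 of 13 for matrix proteases and inhibitors, which were higher and lower in like numbers, 7 of 18 for SPRR2, SPRR3 and LCE3 genes, every one of them an SPRR2 gene, and 3 of 10 for dendritic and Langerhans cell genes, which were mostly lower. It was 0 of 16 for barrier lipid genes, 0 of 9 for kallikreins and 0 of 7 for basal keratinocyte genes, lists that were mostly higher. IL-1 family and epithelial cytokine genes held it in 5 of 18 and terminal differentiation genes in 4 of 21, and these were mostly higher too. Among mostly lower lists, it was absent from 14 skeletal muscle, 12 MHC class I, 10 T cell and 7 fibroblast genes. A match is a string of letters and says nothing about binding in these samples.

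A mucosal keratin gave the largest of these rises. Krt13, a keratin of the suprabasal layers of mouth and oesophagus and a known marker of progressing skin papillomas, had 3338, 8072 and 9542 CPM in the papillomas, against 4.07, 2.19 and 0.529 CPM in WT skin (log2 fold change 11.61 ± 0.82, adjusted p = 6.88e-06). Its usual partner Krt4 had 50.6, 266 and 237 CPM in the papillomas, against 2.78, 2.68 and 4.97 CPM in WT skin (log2 fold change 5.72 ± 0.6, adjusted p = 5.88e-05). All papillomas lay above all WT skin libraries, and for both keratins papilloma 1 had the lowest value of the 3. Krt76, a keratin of the hard palate, had 4.04, 12.1 and 4.35 CPM in the papillomas, against 0, 0.221 and 0.123 CPM in WT skin (log2 fold change 5.8 ± 0.8, adjusted p = 0.000266). Krt78, of stratified epithelia, rose as well (log2 fold change 2.16 ± 0.3). Krt23 fell (log2 fold change -1.51 ± 0.28). Of 11 mucosal and simple epithelial keratins tested, 5 were higher and 2 lower. Krt7, Krt8 and Krt19, keratins of simple epithelia chosen after their values were seen, stayed below 6 CPM in all 6 libraries and did not pass the test. They do not stand for the other listed keratins of simple epithelia, which are not described here and include a called member.

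Keratins and antimicrobial proteins of activated epidermis were higher in 13 of 15 tested members, with a median log2 fold change of 3.71, and 1 was lower, Tnip1 (log2 fold change -0.54 ± 0.18, adjusted p = 0.0313), an inhibitor of NF-kappa-B signalling. The call of Tnip1 was lost with no filter, with the replicate block, with Y-linked expression as a covariate, in a fit of the 6 libraries alone and without WT skin 1, papilloma 1 or papilloma 2. Krt6a, which keratinocytes switch on after wounding or TPA, had 12905, 7875 and 9318 CPM in the papillomas, against 699, 1128 and 360.3 CPM in WT skin (log2 fold change 3.78 ± 0.37, adjusted p = 4e-05). Its partner Krt16 had 19272, 10137 and 14144 CPM in the papillomas, against 1281, 1857 and 196 CPM in WT skin (log2 fold change 3.71 ± 0.63, adjusted p = 0.000923). For both, WT skin 3 was the lowest of the 6 libraries and papilloma 1 the highest, without overlap. Krt6b (log2 fold change 4.09 ± 0.61), Krt17 (1.65 ± 0.26), the calcium-binding alarmin S100a7a (2.85 ± 0.38) and the beta-defensins Defb4 (4.78 ± 0.49) and Defb14 (4.07 ± 0.63) rose too. The WT skin received the same agents by its label, so these are differences on top of whatever level the treatment left in skin.

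The basal layer followed in the same direction, with 9 of 13 members higher and 1 lower. Krt14, the type I keratin of basal cells, had 47663, 27623 and 30803 CPM in the papillomas, against 6173, 8052 and 3169 CPM in WT skin (log2 fold change 2.61 ± 0.32, adjusted p = 0.000147). The groups did not overlap. Krt5, its type II partner, rose by 1.17 on the log2 scale. The hemidesmosome integrins Itga6 and Itgb4, which anchor basal cells to the basement membrane, rose by 1.5 and 1.64, and Itga3 by 2.0. Krt15, a keratin of resting basal cells and of the follicle bulge, went the other way, with 124, 149 and 147 CPM in the papillomas, against 857, 770.3 and 665 CPM in WT skin (log2 fold change -2.45 ± 0.16, adjusted p = 5.23e-06). Its groups were far apart relative to their spread. Summed over the list, basal transcripts made up 60365, 37137 and 40969 CPM in the papillomas and 12221, 15258 and 7341 CPM in WT skin.

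**Figure D2:**
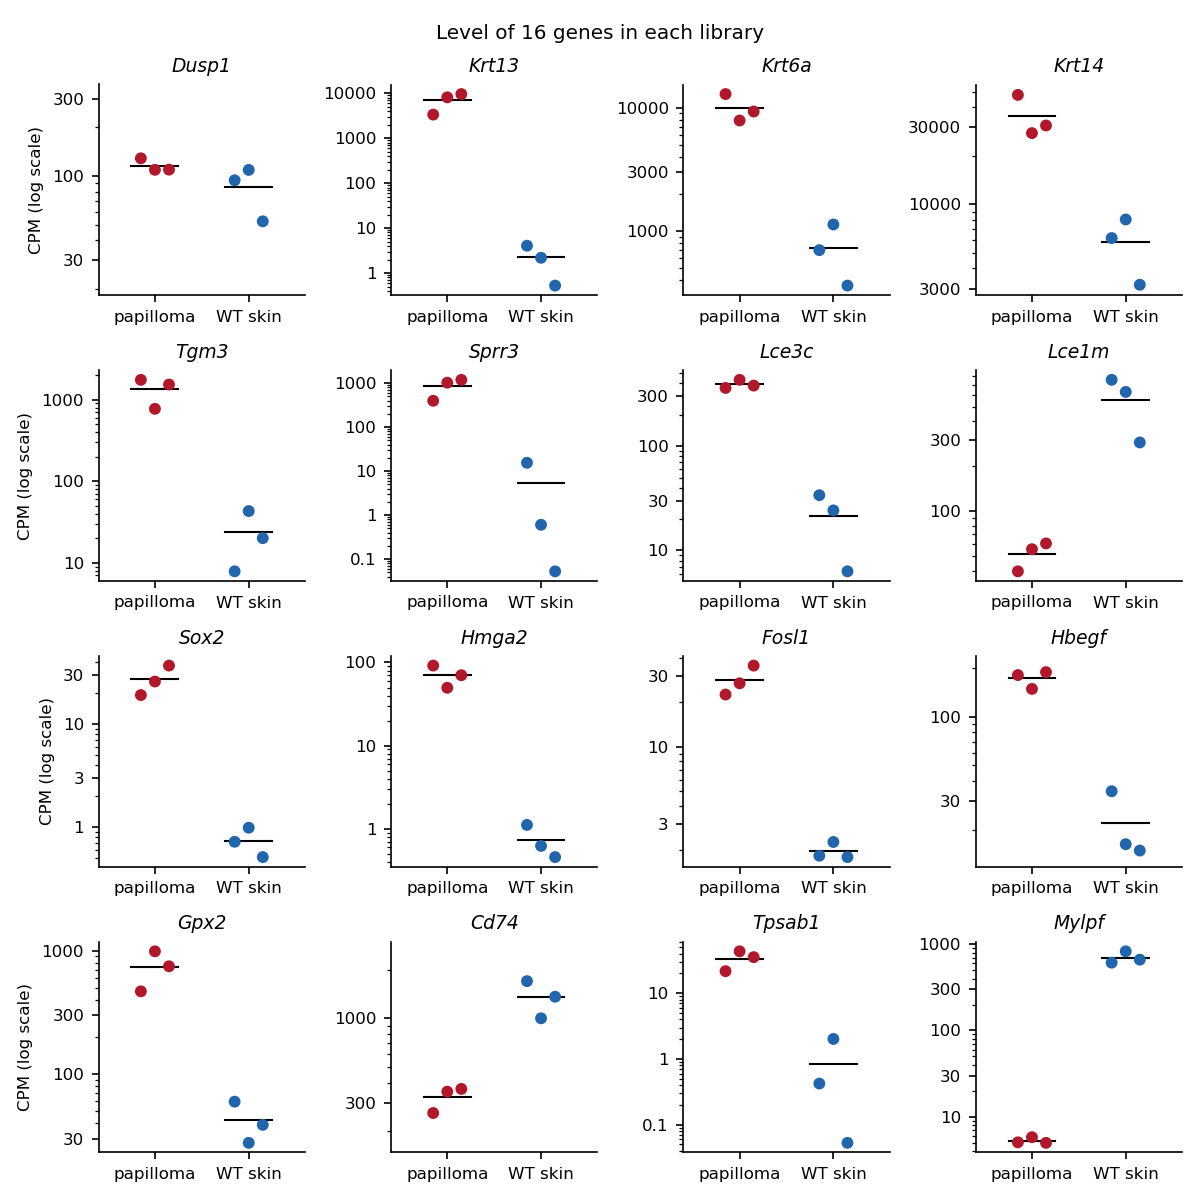
CPM of single genes in each library on log axes, papillomas labelled KO on the left and WT skin on the right of each panel, with points for libraries and a line at the group mean; a library under 3 counts is drawn at the level of 3 counts. The ranges of Dusp1 in the groups meet, whereas the other genes shown are clearly apart, with Lce1m, Cd74 and Mylpf lower in the papillomas.

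Terminal differentiation genes were higher in 17 and lower in 3 of 25 tested, on top of the higher basal transcripts. Tgm3, a transglutaminase that crosslinks envelope proteins, had 1749, 771 and 1532 CPM in the papillomas, against 7.87, 43.1 and 20.1 CPM in WT skin (log2 fold change 5.83 ± 0.61, adjusted p = 5.45e-05). Tgm1, the membrane-bound transglutaminase that starts the envelope, had 468, 291 and 521 CPM in the papillomas, against 60.3, 58.2 and 62.2 CPM in WT skin (log2 fold change 2.82 ± 0.2, adjusted p = 6.84e-06). Every papilloma lay above every WT skin library for both enzymes. The corneodesmosome protein Cdsn, the desmosomal cadherin Dsg1b, the S100-fused protein Rptn and the calmodulin-like Calm4 rose by 2.06, 2.99, 2.88 and 1.69 on the log2 scale. Flg2, a filaggrin relative of the uppermost living layers, had 64.8, 47.2 and 55.5 CPM in the papillomas, against 418, 466 and 318 CPM in WT skin (log2 fold change -2.85 ± 0.39, adjusted p = 0.000263). Krt77, an epidermal keratin, fell by 5.29 on the log2 scale and Lce1m by 3.42. Flg, the profilaggrin gene next to Flg2, was in contrast higher, with 606, 497 and 629.5 CPM in the papillomas and 175, 128 and 265 CPM in WT skin.

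Most of the genes for the cornified envelope lie side by side in the epidermal differentiation complex on chromosome 3, and its families did not move together. Between S100a9 and Rptn (gene starts 90692632 to 93393699, GRCm38), 32 of 56 tested protein-coding genes were higher, 6 lower and 18 did not pass the test. All 6 LCE3 genes, late envelope genes that are induced when the barrier is damaged, were higher, with a median log2 fold change of 4.33. Lce3c had 362, 433 and 381 CPM in the papillomas, against 33.9, 24.2 and 6.31 CPM in WT skin (log2 fold change 4.19 ± 0.48, adjusted p = 9.23e-05). Of 14 LCE1 genes, the LCE family of normal skin, 5 were higher, 1 lower and 8 did not pass, with a median of 0.49. The SPRR1 genes were both higher, and 7 of 11 SPRR2 genes, with a median of 2.73. Sprr3, a proline-rich envelope precursor of the oesophagus, had 396, 1019 and 1183 CPM in the papillomas, against 15.5, 0.604 and 0.0352 CPM in WT skin (log2 fold change 7.35 ± 1.45, adjusted p = 0.00234). Sprr2h had 201, 147 and 170.1 CPM in the papillomas, against 23.6, 11.1 and 10.1 CPM in WT skin (log2 fold change 3.54 ± 0.3, adjusted p = 2.17e-05). For these 3 genes the groups did not overlap, and WT skin 3 was the lowest library each time. Sprr2a1, Sprr2a2 and Sprr2a3, near-identical copies between which reads can be split, did not pass the test. Sprr4 fell to 23.02, 20.4 and 18.3 CPM in the papillomas, against 149, 109.7 and 139 CPM in WT skin (log2 fold change -2.68 ± 0.25, adjusted p = 3.06e-05).

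**Figure D3:**
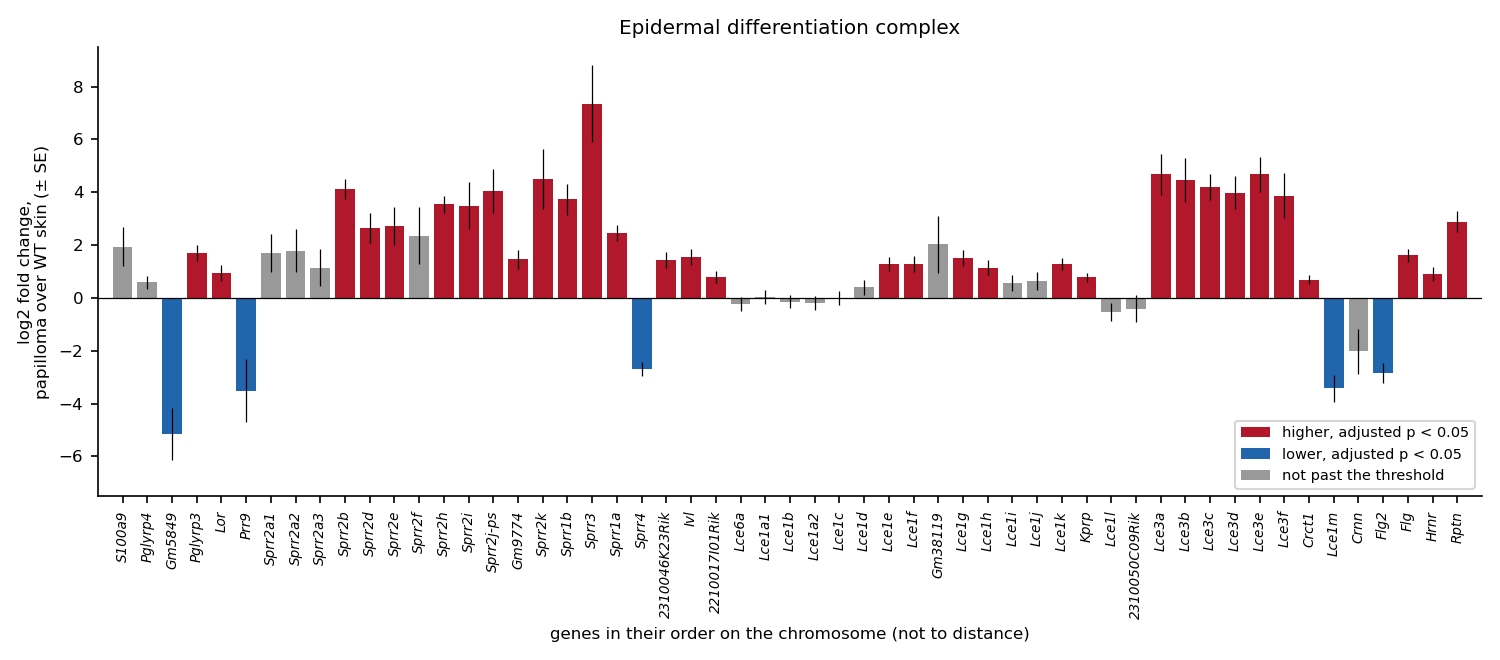
Log2 fold change with its standard error for the tested protein-coding genes of the epidermal differentiation complex, papillomas labelled KO over WT skin, in chromosomal order and not to distance; a gene at 0 in all papillomas is left out. The 6 LCE3 genes have a median of 4.33 and the SPRR2 genes of 2.73, the LCE1 genes have a median of 0.49, and Sprr4, Lce1m and Flg2 are lower.

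The enzymes that make and modify the lipids between cornified cells rose in 16 of 18 tested, and none fell. Alox12b, a lipoxygenase that oxidises the linoleate of ceramides, had 451, 236 and 487 CPM in the papillomas, against 24.9, 32.4 and 10.9 CPM in WT skin (log2 fold change 4.11 ± 0.39, adjusted p = 3.54e-05). Cers3, the ceramide synthase for very long acyl chains, had 336, 336 and 266 CPM in the papillomas, against 68.6, 46.6 and 50.8 CPM in WT skin (log2 fold change 2.5 ± 0.18, adjusted p = 7.73e-06). Neither gene overlapped between the groups. The magnesium transporter Nipal4 and Ugcg, which makes glucosylceramide, rose by 1.9 and 1.45. Elovl4, which lengthens fatty acids for the same ceramides, did not pass the test (log2 fold change -0.45 ± 0.19, adjusted p = 0.0842). Cholesterol synthesis, which supplies the same layer and growing cells alike, was higher in 13 and lower in 1 of 16, with Sqle, squalene epoxidase, at a log2 fold change of 1.16 ± 0.14.

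Proteases that shed the outer cells and the inhibitors that hold them back rose side by side. Among kallikreins and their regulators, 9 of 12 were higher and none lower. Klk14 had 155, 177 and 234 CPM in the papillomas, against 9.38, 1.75 and 1.15 CPM in WT skin (log2 fold change 5.55 ± 0.7, adjusted p = 0.000162), and Klk10, another member, rose by 3.49 on the log2 scale. Spink5, whose product inhibits several of these kallikreins, had 1256, 2104 and 1422 CPM in the papillomas, against 452, 301 and 254 CPM in WT skin (log2 fold change 2.25 ± 0.31, adjusted p = 0.000248). Of 12 clade B serpins, 9 were higher and none lower. Serpinb12 had 438, 1059.8 and 484 CPM in the papillomas, against 26.5, 51.5 and 31.6 CPM in WT skin (log2 fold change 4.18 ± 0.39, adjusted p = 3.06e-05). None of these genes overlapped between the groups. The stefin A cysteine protease inhibitors were higher in 7 of 9, but they are close copies of one another and single values are uncertain. Csta1 rose by 1.76 and Stfa3 by 1.59.

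Cell junction genes were higher in 11 and lower in 2 of 17, or 1 without papilloma 1 or 2. Dsg3, the desmosomal cadherin of basal and mucosal cells, had 452, 352 and 353 CPM in the papillomas, against 48.1, 51.9 and 34.9 CPM in WT skin (log2 fold change 3.1 ± 0.19, adjusted p = 4.44e-06). Dsc2, a desmocollin, had 834, 549 and 724 CPM in the papillomas, against 54.4, 56.5 and 21.1 CPM in WT skin (log2 fold change 4.0 ± 0.35, adjusted p = 2.27e-05). Both were higher in every papilloma than in any WT skin library. The connexins Gjb2 and Gjb6, which couple keratinocytes of thickened epidermis, rose by 2.24 and 2.5, and the plakophilin Pkp2 fell (-2.14 ± 0.26). Gja1 had 588, 705 and 544 CPM in the papillomas and 374, 447 and 1052 CPM in WT skin, where WT skin 3 was high. It did not pass the test (log2 fold change -0.03 ± 0.32, adjusted p = 0.951), but was called higher when WT skin 3 was left out (log2 fold change 0.59, adjusted p = 0.0212).

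Of 13 transcription factors linked to squamous tumours, 8 were higher and 1 lower. Sox2, a stem cell factor that marks skin tumour cells and is nearly silent in normal epidermis, had 19.2, 26.05 and 37.2 CPM in the papillomas, against 0.7197, 0.986 and 0.511 CPM in WT skin (log2 fold change 5.22 ± 0.3, adjusted p = 2.79e-06). Hmga2, an architectural chromatin protein of embryonic tissue, had 91.8, 49.7 and 70.3 CPM in the papillomas, against 1.12, 0.624 and 0.458 CPM in WT skin (log2 fold change 6.62 ± 0.4, adjusted p = 4.19e-06). Pitx1, a homeobox factor, had 129, 171 and 305 CPM in the papillomas, against 9.95, 9.22 and 0.476 CPM in WT skin (log2 fold change 4.95 ± 0.82, adjusted p = 0.000809). All 3 were low in each WT skin library and did not overlap. Grhl3, Klf5 and Klf4, which drive keratinocyte growth and differentiation, rose by 2.23, 1.41 and 0.9. Twist1, a factor of mesenchymal cells, was the 1 that fell (-1.79 ± 0.37), a call that was lost with Y-linked expression as a covariate.

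On the input side of the MAP kinase pathway, 5 of 10 EGFR ligands and receptors were higher and 2 lower. The ligand Hbegf had 182, 149 and 189 CPM in the papillomas, against 34.6, 16.2 and 14.8 CPM in WT skin (log2 fold change 2.99 ± 0.29, adjusted p = 3.57e-05). Areg, amphiregulin, had 64.3, 56.4 and 55.5 CPM in the papillomas, against 5.91, 5.13 and 11.96 CPM in WT skin (log2 fold change 2.93 ± 0.31, adjusted p = 5.49e-05). No papilloma overlapped WT skin for either ligand. Tgfa, Epgn and Ereg rose by 1.82, 3.39 and 1.12, and Egf fell by 2.31 on the log2 scale, the 1 member still lower without WT skin 1 or 2 or papilloma 1 or 3. The receptors Egfr (log2 fold change -0.34 ± 0.14, adjusted p = 0.0758) and Erbb3 (adjusted p = 0.17) did not pass. Among the RAS and MAP kinase genes, 9 of 20 were higher and 5 lower, with log2 fold changes of less than 1 for most. With Y-linked expression as a covariate 5 were higher and 3 lower, and without papilloma 1 also 3 were lower. Mapk13 (p38 delta) had 279, 234 and 333 CPM in the papillomas, against 143, 120.1 and 88.4 CPM in WT skin (log2 fold change 1.27 ± 0.19, adjusted p = 0.000378), whereas Mapk12 (p38 gamma), which is abundant in muscle, fell to 5.71, 8.05 and 6.24 CPM in the papillomas, against 32.1, 35.6 and 32.2 CPM in WT skin (log2 fold change -2.32 ± 0.19, adjusted p = 1.9e-05). Muscle markers fell in the same libraries, as given below, and their part in the fall of Mapk12 was not tested.

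Immediate early genes split. Fosl1, the AP-1 subunit FRA1 that sustained ERK signalling induces, had 22.6, 26.9 and 35.5 CPM in the papillomas, against 1.84, 2.27 and 1.797 CPM in WT skin (log2 fold change 3.85 ± 0.21, adjusted p = 2.18e-06). Junb, an AP-1 partner, had 339.9, 289.6 and 380.2 CPM in the papillomas, against 178, 155 and 102 CPM in WT skin (log2 fold change 1.22 ± 0.2, adjusted p = 0.00089). The groups were apart for both. Ier3, Maff and Myc rose by 1.73, 0.89 and 1.04. Egr2, a zinc finger factor, fell to 16.7, 15.9 and 22.7 CPM in the papillomas, against 48.02, 54.2 and 60.6 CPM in WT skin (log2 fold change -1.56 ± 0.26, adjusted p = 0.000961). Over the list, 6 of 18 were higher and 5 lower, shares on both sides nearer to those of all genes than in the epidermal lists, and 2 were lower with Y-linked expression as a covariate, in a fit of the 6 libraries alone or without papilloma 1. Fosl2 did not pass the test (log2 fold change 0.12 ± 0.15, adjusted p = 0.528). Of 12 ERK feedback genes, 3 were higher and 2 lower. Phlda1, an ERK-induced gene, had 44.3, 44.7 and 53.7 CPM in the papillomas, against 11.1, 11.4 and 10.2 CPM in WT skin (log2 fold change 2.12 ± 0.14, adjusted p = 5.49e-06), and the ETS factor Etv4 rose by 1.46, while Etv1 fell by 1.73 on the log2 scale. Errfi1 and Spred1 did not pass.

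Genes of S phase and of mitosis were higher in 16 of 20 each, and none were lower. The S phase count was 10 without WT skin 2 and 9 with Y-linked expression as a covariate, and the mitosis count was 8 with that covariate. Ccne1, the cyclin of S phase entry, had 34.1, 25.1 and 29.03 CPM in the papillomas, against 5.58, 7.41 and 9.07 CPM in WT skin (log2 fold change 2.0 ± 0.2, adjusted p = 3.84e-05). Cdc20, the activator of the anaphase complex, had 102, 89.6 and 115 CPM in the papillomas, against 15.9, 32.2 and 34.5 CPM in WT skin (log2 fold change 1.89 ± 0.24, adjusted p = 0.000177). Both were apart between the groups, and WT skin 1 had the lowest value of each. Mki67, the common proliferation marker, had 181, 163 and 182 CPM in the papillomas and 52.9, 132 and 179 CPM in WT skin. WT skin 3 reached the level of the papillomas, and Mki67 did not pass the test (log2 fold change 0.53 ± 0.32, adjusted p = 0.209). The G1 cyclin Ccnd1 had 171, 189.6 and 172 CPM in the papillomas, against 52.5, 29.9 and 45.4 CPM in WT skin (log2 fold change 2.06 ± 0.22, adjusted p = 7.1e-05), and its kinase partner Cdk6 rose by 1.83. The inhibitors Cdkn1b and Cdkn1c fell by 0.91 and 2.57 on the log2 scale, while Cdkn1a (p21) rose by 0.85.

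Targets of NRF2, the transcription factor of the oxidative stress response, were higher in 12 of 14, with a median log2 fold change of 2.33 and none lower. Gpx2, a glutathione peroxidase of epithelia, had 469, 988 and 747 CPM in the papillomas, against 59.8, 27.7 and 38.8 CPM in WT skin (log2 fold change 4.13 ± 0.34, adjusted p = 1.85e-05). Slc7a11, the cystine importer, had 157, 257 and 204 CPM in the papillomas, against 5.01, 9.94 and 12.9 CPM in WT skin (log2 fold change 4.47 ± 0.37, adjusted p = 1.9e-05). Nqo1, a quinone reductase, had 109.8, 244 and 169.7 CPM in the papillomas, against 14.7, 27.98 and 14.1 CPM in WT skin (log2 fold change 3.21 ± 0.35, adjusted p = 7.5e-05). Papilloma 2 was the highest library for all 3, and no WT skin library came near the papillomas. The glutathione transferases Gsta4 and Gsto1 and the NADPH-producing G6pdx rose by 4.14, 4.11 and 1.87. Of 17 genes of glycolysis and hypoxia, 10 were higher and none lower, among them Eno1 (1.58 ± 0.17), Pkm (1.59 ± 0.18) and Ldha (1.62 ± 0.19). In polyamine synthesis, which TPA is known to induce, Odc1, the rate-limiting decarboxylase, had 430.2, 269 and 287 CPM in the papillomas, against 96.1, 85.5 and 146 CPM in WT skin (log2 fold change 1.59 ± 0.29, adjusted p = 0.00147), and the spermidine synthase Srm rose by 1.51, while 5 of 13 listed genes were higher and 2 lower. Among the genes of prostaglandins and lipoxygenases, 4 of 17 were higher and 5 lower: the synthase Ptges rose (2.19 ± 0.26), and the prostaglandin receptor Ptger3 and the lipoxygenase Alox12e fell by 3.66 and 2.50 on the log2 scale.

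Epithelial cytokines of the IL-1 family were higher, while chemokines, interferon response genes and antigen presentation genes were mostly not. Of 24 IL-1 family and epithelial cytokine genes, 14 were higher and 2 lower. Il1f6 (IL-36 alpha), an epidermal alarm cytokine, had 180.4, 242 and 139.9 CPM in the papillomas, against 22.7, 14.4 and 17.1 CPM in WT skin (log2 fold change 3.38 ± 0.28, adjusted p = 1.79e-05). Il33, a nuclear alarmin, had 189, 133 and 108 CPM in the papillomas, against 33.8, 25.97 and 19.4 CPM in WT skin (log2 fold change 2.44 ± 0.24, adjusted p = 3.56e-05). The receptor antagonists Il1rn and Il1f5 rose as well (2.7 ± 0.24 and 1.62 ± 0.2). For these 4 genes every papilloma exceeded every WT skin library. Among 22 chemokines, Cxcl1, a neutrophil attractant, was the 1 called higher (24.9, 75.1 and 54.3 CPM in the papillomas, against 4.59, 2.62 and 1.27 CPM in WT skin, log2 fold change 4.2), and 6 were lower. Without WT skin 1, 4 were higher. Ccl27a, a keratinocyte chemokine for skin-homing T cells, fell to 26.98, 16.6 and 23.6 CPM in the papillomas, against 155, 131 and 100.3 CPM in WT skin (log2 fold change -2.52 ± 0.21, adjusted p = 1.99e-05). Cxcl12, made largely by stroma, fell by 2.95 on the log2 scale.

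Antigen presentation fell as a group. Of 14 MHC class I genes 13 were lower and none higher, and of 11 class II genes 10 were lower and none higher. B2m, the light chain of all class I molecules, had 757, 738 and 556 CPM in the papillomas, against 1919, 1419 and 1695 CPM in WT skin (log2 fold change -1.3 ± 0.18, adjusted p = 0.00024). H2-K1, a class I heavy chain, had 793, 719 and 795 CPM in the papillomas, against 1789, 1447 and 1220.4 CPM in WT skin (log2 fold change -0.95 ± 0.16, adjusted p = 0.000838). Cd74, the class II invariant chain, had 259, 352 and 366 CPM in the papillomas, against 1705, 1003 and 1365 CPM in WT skin (log2 fold change -2.06 ± 0.26, adjusted p = 0.000147). The groups were separate for all 3, and the papillomas varied little. The immunoproteasome subunits Psmb8 and Psmb9 fell by 1.62 and 1.44 on the log2 scale. Of the 24 interferon response genes listed, 14 were lower and none higher, a count that does not cover interferon-induced genes outside the list. Ifi27l2a, strongly inducible by interferon, had 14.9, 8.03 and 3.04 CPM in the papillomas, against 132, 64.5 and 238 CPM in WT skin (log2 fold change -4.07 ± 0.58, adjusted p = 0.000327), and the signal transducer Stat2 fell by 1.01 on the log2 scale.

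Markers of most immune cells were lower in the papillomas, by different amounts. Macrophage and monocyte markers were lower in 12 of 17 (1 was higher), dendritic and Langerhans cell markers in 10 of 13, T cell markers in 11 of 18, and B and plasma cell markers in 9 of 13. Csf1r, the macrophage growth factor receptor, had 47.5, 39.7 and 37.05 CPM in the papillomas, against 159.8, 101 and 148 CPM in WT skin (log2 fold change -1.72 ± 0.2, adjusted p = 0.000104). Cd209a, a lectin of dermal dendritic cells, had 0, 0.195 and 0.157 CPM in the papillomas, against 27.9, 29.99 and 41.2 CPM in WT skin (log2 fold change -8.08 ± 0.65, adjusted p = 1.65e-05), with papilloma 1 at 0. Igkc, the kappa light chain of antibodies, had 19.8, 41.1 and 7.07 CPM in the papillomas, against 299, 326 and 426 CPM in WT skin (log2 fold change -3.95 ± 0.5, adjusted p = 0.000157). None of the 3 overlapped. Cd8b1, of cytotoxic T cells, had 0.372, 0.438 and 0.419 CPM in the papillomas, against 5.14, 5.39 and 2.77 CPM in WT skin (log2 fold change -3.43 ± 0.49, adjusted p = 0.000331). Its values in the papillomas were all below the lowest WT skin value. In the list of T cells 2 genes were higher, the surface receptor Cd5 (log2 fold change 0.68 ± 0.21, adjusted p = 0.022) and the constant segment Trbc2, with 81.3, 105.4 and 110.3 CPM in the papillomas and 46.1, 40.4 and 32.4 CPM in WT skin (log2 fold change 1.32 ± 0.18, adjusted p = 0.000267), and the summed T cell list overlapped between the groups (119 to 167 CPM in the papillomas, 117 to 208 CPM in WT skin). T cell markers called lower numbered 7 with Y-linked expression as a covariate, and the call of Cd5 was lost with it and without WT skin 2 or 3 or papilloma 1 or 3.

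Of 11 neutrophil genes tested, Cxcr2, Csf3r and Trem1 were higher and none were lower. Cxcr2, the receptor for CXCL1, had 27.3, 20.2 and 28.6 CPM in the papillomas, against 7.62, 4.07 and 3.01 CPM in WT skin (log2 fold change 2.38 ± 0.3, adjusted p = 0.000149). The granule gene Ltf had 1.04, 1.12 and 0.157 CPM in the papillomas, against 71.02, 0.161 and 0.123 CPM in WT skin, where WT skin 1 stood alone, and Ltf did not pass the test. Mast cell genes were lower in 7 of 11 (4 with Y-linked expression as a covariate), with the chymase Mcpt4 at 21.3, 37.3 and 26.6 CPM in the papillomas, against 90.7, 102 and 115 CPM in WT skin (log2 fold change -1.85 ± 0.27, adjusted p = 0.000356). The tryptase Tpsab1 was an exception within the list, with 21.6, 43.3 and 35.3 CPM in the papillomas, against 0.422, 2.01 and 0.0529 CPM in WT skin (log2 fold change 5.33 ± 0.82, adjusted p = 0.000522). Tpsab1 was high in every library labelled KO and low in every one labelled WT, SCC included, as described further on. Of 15 checkpoint genes, 4 were lower and 1 higher. The higher one was the costimulatory ligand Cd80, with 8.47, 11.6 and 14.4 CPM in the papillomas, against 3.23, 1.93 and 2.33 CPM in WT skin (log2 fold change 2.2 ± 0.25, adjusted p = 8.72e-05). Cd274 (PD-L1) had 4.01, 5.57 and 3.69 CPM in the papillomas, against 13.4, 13.6 and 9.83 CPM in WT skin (log2 fold change -1.47 ± 0.31, adjusted p = 0.00354). Neither checkpoint gene overlapped between the groups.

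The deeper tissues of the section made the widest differences. All 19 skeletal muscle genes tested were lower, and their sum was 19.5, 21.4 and 26.3 CPM in the papillomas, against 9181, 12057 and 9055 CPM in WT skin. Acta1, skeletal actin, had 0.212, 0.146 and 0.498 CPM in the papillomas, against 1437, 2295 and 1755 CPM in WT skin (log2 fold change -12.64 ± 1.74, adjusted p = 0.000266). The 12 largest falls were those of the muscle genes Pvalb, Xirp2, Ckmt2, Myom2, Smpx, Myh4, Ppp1r3a, Tnnt3, Acta1 and Nrap and of 2 Y-linked genes, Eif2s3y and Ddx3y. Both Y-linked genes had 0 counts in the papillomas, and in WT skin Eif2s3y had 72.2, 83.8 and 0.0705 CPM and Ddx3y 56.95, 65.6 and 0.0529 CPM, which leaves WT skin 3 next to the papillomas. Their calls were lost without WT skin 1 or 2. Adipocyte genes were lower in 14 of 15. Their sum was 2004, 3486 and 1046.5 CPM in the papillomas, against 6767, 4926 and 6306 CPM in WT skin. Without Fabp4, which vessels also express, it was 562, 142 and 78.6 CPM in the papillomas, against 5667, 3958 and 5224 CPM in WT skin. The ratio of mean sums, WT skin over papillomas, was 2.75 with Fabp4 and 19 without it, so its size rests on leaving out this gene. Lpl, lipoprotein lipase, had 54.5, 19.1 and 8.51 CPM in the papillomas, against 473, 321 and 701 CPM in WT skin (log2 fold change -4.19 ± 0.61, adjusted p = 0.000379). The muscle sum and both adipocyte sums were apart between the groups. Among the papillomas, the adipocyte sum without Fabp4 was highest in papilloma 1. All 7 Schwann cell genes were lower.

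Fibroblast genes were lower in 14 of 16, or 9 with Y-linked expression as a covariate. Dcn, the collagen-binding decorin, had 195, 179.5 and 62.4 CPM in the papillomas, against 2890.4, 1619 and 1328 CPM in WT skin (log2 fold change -3.74 ± 0.59, adjusted p = 0.000641). Col1a1 had 709.7, 538 and 369 CPM in the papillomas, against 7889, 4437 and 415 CPM in WT skin. WT skin 3 lay within the range of the papillomas for Col1a1, and its call (adjusted p = 0.0132) was lost without papilloma 3 and with that covariate. Matrix remodelling genes were higher in 5 and lower in 5 of 16, matrix proteases and their inhibitors higher in 5 and lower in 6 of 16, and these counts changed by more than 1.5 times when 1 library was left out (3 remodelling genes higher without papilloma 1, 3 lower without WT skin 1, papilloma 2 or papilloma 3, and 2 protease genes higher without WT skin 1 or papilloma 1). The gelatinase Mmp2 had 136, 133 and 65.5 CPM in the papillomas, against 855, 519 and 223 CPM in WT skin (log2 fold change -2.25 ± 0.45, adjusted p = 0.00246), and its inhibitor Timp2 fell by 2.47 on the log2 scale. Both were apart between the groups. Endothelial genes were lower in 8 of 16 and 5 without papilloma 3, with Cldn5, the tight junction claudin of vessels, at a log2 fold change of -1.62 ± 0.2 and the vessel antigen Plvap at -1.11 ± 0.2. Melanocyte genes were lower in 4 of 9, against 7 without WT skin 1 and 2 without papilloma 1.

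**Figure D4:**
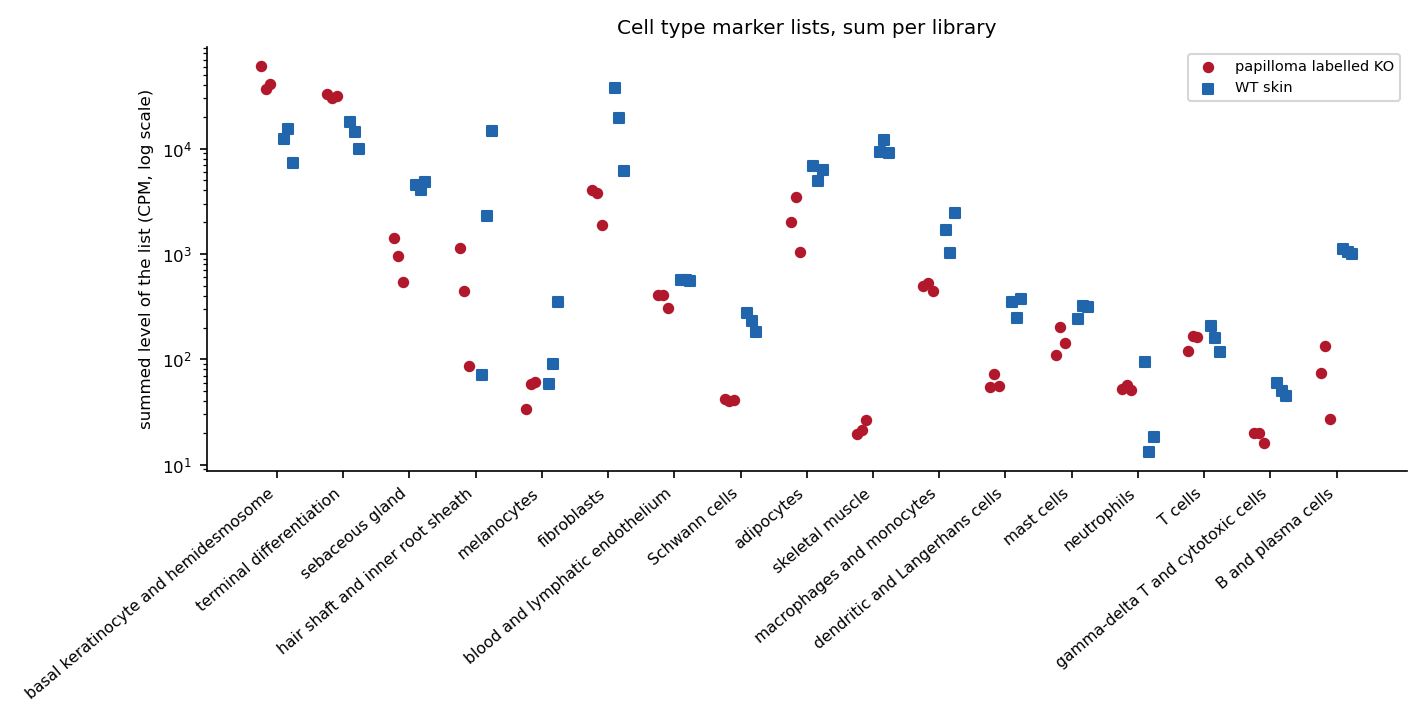
Summed CPM of cell type marker lists in each library on a log axis, papillomas labelled KO as circles to the left and WT skin as squares to the right for each list. Muscle sums are 19.5 to 26.3 CPM in the papillomas and 9055 to 12057 CPM in WT skin, basal keratinocyte sums are higher in every papilloma, and the hair, neutrophil, T cell and melanocyte sums overlap.

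Among the lists for skin appendages, only the sebaceous one was lower in both most of its members and its sum. Sebaceous gland genes were lower in 11 of 13, or 7 without WT skin 1, without papilloma 3 or with Y-linked expression as a covariate. Their sum was 1420, 951 and 545 CPM in the papillomas, against 4472, 4061 and 4763 CPM in WT skin. Scd3, a sebocyte desaturase, had 1.65, 3.55 and 1.91 CPM in the papillomas, against 242, 142 and 51.6 CPM in WT skin (log2 fold change -5.93 ± 0.56, adjusted p = 3.3e-05). Genes of the follicle bulge and its stem cells were lower in 9 of 12, but their sum overlapped between the groups (1458, 1753 and 887 CPM in the papillomas, against 1199, 1098 and 1247 CPM in WT skin). Lgr5, a receptor of cycling follicle stem cells, had 5.02, 2.04 and 1.97 CPM in the papillomas, against 29.9, 20.7 and 31.5 CPM in WT skin (log2 fold change -3.18 ± 0.36, adjusted p = 8.3e-05), and Gli1, a target of hedgehog signalling, fell by 3.15 on the log2 scale. Both genes were lower in every papilloma. Hair shaft and inner root sheath genes overlapped: their sum was 1128, 442 and 85.3 CPM in the papillomas and 70.1, 2276 and 14799 CPM in WT skin. Of 26, 4 were called lower and 1 higher, against 15 lower without WT skin 1, 1 without WT skin 3, and 2, 1 and 1 without papilloma 1, 2 or 3. Lef1, a WNT effector of hair matrix cells, was among those lower (-3.48 ± 0.6).

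Among the listed genes, those of hair and fat had the widest range between the 3 papillomas. Krt71, an inner root sheath keratin, had 302, 112 and 0.314 CPM in the papillomas, against 7.72, 659 and 4265 CPM in WT skin. Adipoq, made by adipocytes, had 21.6, 2.77 and 0 CPM in the papillomas, against 247, 132 and 210.5 CPM in WT skin. Both were highest in papilloma 1 and at or near 0 in papilloma 3. The sums of the adipocyte list with Fabp4 (2004, 3486 and 1046.5 CPM) and of the follicle bulge list were instead highest in papilloma 2. Krt4 and Tslp, a cytokine that barrier-damaged keratinocytes release, were lower in papilloma 1 than in the others, Tslp with 9.37, 41.4 and 42.3 CPM in the papillomas, against 8.34, 6.74 and 4.35 CPM in WT skin. Papilloma 1 overlapped WT skin for Tslp, and its call (log2 fold change 2.26 ± 0.61, adjusted p = 0.0129) was lost with Y-linked expression as a covariate. Serpinb3a, a squamous cell serpin, had 128, 556 and 225 CPM in the papillomas, with papilloma 2 highest, against 52.02, 35.95 and 30.5 CPM in WT skin.

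When set against WT SCC, the papillomas differed in 1175 of 22371 genes (5.25%), 780 higher (3.49%) and 395 lower (1.77%), a far smaller number than against skin. Genotype label and lesion again change together in this contrast. Leaving out WT SCC 1, 2 or 3 left 654, 478 and 701 genes called, and leaving out papilloma 1 left 677. The list counts here come from the fit with all libraries. Terminal differentiation genes stood out in number, with 21 of 25 higher in the papillomas and none lower. Krt1, the type II keratin of spinous cells, had 3736, 2231 and 3689.5 CPM in the papillomas, against 358, 381 and 458 CPM in WT SCC (log2 fold change 3.01 ± 0.37, adjusted p = 0.000943). Flg2 had 64.8, 47.2 and 55.5 CPM in the papillomas, against 2.44, 2.31 and 7.61 CPM in WT SCC (log2 fold change 3.76 ± 0.41, adjusted p = 0.0005). The papillomas lay above the SCC for both, while Flg2 was below WT skin, as given above. Barrier lipid genes were higher in 12 of 18, cholesterol synthesis genes in 10 of 16, SPRR2, SPRR3 and LCE3 genes in 10 of 18, and IL-1 family and epithelial cytokines in 6 of 24. None of these lists had a member called lower. The same lists were also higher in SCC labelled KO against WT SCC. Terminal differentiation genes were higher there in 11 of 25 (1 was lower), and barrier lipid genes in 11 of 18. Cholesterol synthesis genes were higher in 9 of 16, SPRR2, SPRR3 and LCE3 genes in 11 of 18, and IL-1 family genes in 7 of 24. Against WT SCC, higher members of these lists were not particular to the papillomas. Both contrasts use the same 3 WT SCC libraries, so a list low in those libraries comes out higher in both. Between papillomas and WT SCC, basal keratinocyte genes did not differ at this threshold in any of 13, and activation keratins and alarmins did in 1 of 15.

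On the other side of that contrast stood hypoxia, some tumour factors and plasma cells. Of 17 genes of glycolysis and hypoxia, 5 were lower in the papillomas and none higher, and of 13 tumour transcription factors 3 were lower and 1, Grhl1, higher (log2 fold change 0.87 ± 0.13, adjusted p = 0.00272). Adm, adrenomedullin, had 10.3, 3.43 and 3.64 CPM in the papillomas, against 38.2, 60.7 and 41.6 CPM in WT SCC (log2 fold change -3.02 ± 0.44, adjusted p = 0.00283), and Car9, carbonic anhydrase IX, had 7.28, 2.99 and 5.19 CPM in the papillomas, against 19.6, 26.7 and 22.1 CPM in WT SCC (log2 fold change -2.15 ± 0.29, adjusted p = 0.00166). Glycolytic enzymes such as Eno1 and Ldha did not pass (-0.25 and -0.03 on the log2 scale). Hmga1 had 90.9, 69.6 and 107 CPM in the papillomas, against 195, 231 and 213 CPM in WT SCC (log2 fold change -1.25 ± 0.16, adjusted p = 0.00124), and Runx1 fell by 1.02 on the log2 scale. The groups were separate for these genes. Igkc had 19.8, 41.1 and 7.07 CPM in the papillomas, against 132, 135 and 132 CPM in WT SCC (log2 fold change -2.55 ± 0.47, adjusted p = 0.00941), and 5 of 13 B and plasma cell genes were lower and none higher. Mast cell genes ran the other way, with 6 of 11 higher and none lower, among them Mcpt4 (1.09 ± 0.27, adjusted p = 0.0376). SCC labelled KO against WT SCC also had 5 of 13 B and plasma cell genes lower and none higher. Of the 17 glycolysis and hypoxia genes, 3 were lower there and none higher, and 2 of 11 mast cell genes were higher. These counts rest on the same WT SCC libraries as those of the papillomas against WT SCC.

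The SCC libraries, which entered the fit but neither group of the comparison with skin, carry the genotype label within a single kind of lesion. SCC labelled KO differed from WT SCC in 1760 genes (7.87%), 1003 higher (4.48%) and 757 lower (3.38%), with 2 libraries labelled KO of which 1 held Y-linked transcripts. Each library left out lowered this count, to between 302 without SCC labelled KO 1 and 974 without WT SCC 1. Of these, 654 were also higher in papillomas than in WT skin, which is 17.1% of the genes higher in papillomas and 65.2% of those higher in SCC labelled KO. A further 417 were lower in both (8.32% and 55.1%), while 45 were higher in papillomas and lower in SCC labelled KO, and 60 the reverse. Without 1 library at a time the number higher in both ran from 159 to 882. Krt13 had 15387 and 14976 CPM in SCC labelled KO, against 2236, 1938 and 1906 CPM in WT SCC (log2 fold change 2.91 ± 0.59, adjusted p = 0.0164). Tgm3 had 1617 and 2752 CPM in SCC labelled KO, against 285, 243 and 279 CPM in WT SCC (log2 fold change 3.02 ± 0.56, adjusted p = 0.0107). Il33 had 225 and 252 CPM in SCC labelled KO, against 33.8, 31.8 and 35.9 CPM in WT SCC (log2 fold change 2.82 ± 0.25, adjusted p = 0.000279). Both libraries labelled KO lay above the 3 WT ones for each gene. Lce3c (3.06 ± 0.48) and Il1f6 (3.2 ± 0.29) were higher too, and Cd209a (-4.76 ± 0.73) and Igkc (-3.7 ± 0.59) lower. Krt1 did not pass there (log2 fold change 0.04 ± 0.38, adjusted p = 0.973), and Dusp1 itself had 139 and 174 CPM in SCC labelled KO, against 73.3, 83.6 and 66.5 CPM in WT SCC (log2 fold change 1.07 ± 0.25, adjusted p = 0.0283).

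**Figure D5:**
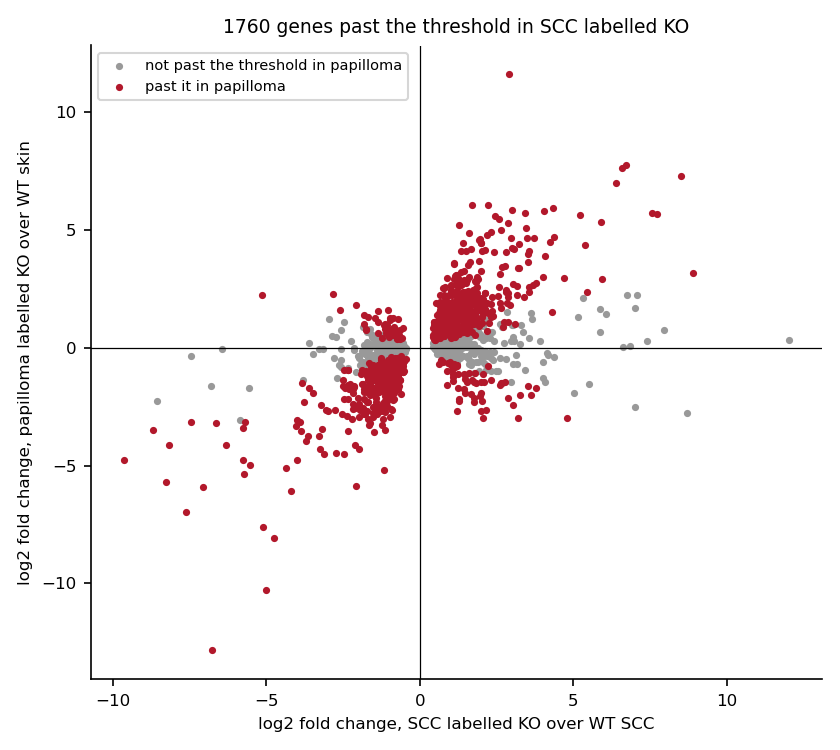
Genes past an adjusted p of 0.05 between SCC labelled KO and WT SCC, with the log2 fold change of SCC labelled KO over WT SCC on the horizontal axis and of papillomas labelled KO over WT skin on the vertical axis; red points also passed the threshold in papillomas. Of the 1760 genes, 654 are higher in both and 417 lower in both.

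Several transcripts followed the genotype label whatever the lesion. Dynlt1b, 1 of several near-identical dynein light chain copies, had 27.9, 37.9 and 27.5 CPM in the papillomas and 37.3 and 37.8 CPM in SCC labelled KO, against 0.347, 0.221 and 0.176 CPM in WT skin and 0.464, 0.3705 and 0.489 CPM in WT SCC. Tpsab1 had 21.6, 43.3 and 35.3 CPM in the papillomas and 33.4 and 28.8 CPM in SCC labelled KO, against 0.422, 2.01 and 0.0529 CPM in WT skin and 0.348, 0.803 and 0.373 CPM in WT SCC. In both cases all 5 libraries labelled KO lay above all 6 labelled WT. The pseudogenes Atp6v0c-ps2 and Gm9825 rose in the papillomas against WT skin by 7.76 and 7.64, and in SCC labelled KO against WT SCC by 6.72 and 6.58. Atp6v0c, the parent of the first, fell in the papillomas by 1.54 on the log2 scale, and Gm7850 by 3.42, while 2310061N02Rik did not pass (log2 fold change 0.33 ± 1.2, adjusted p = 0.84). These copies share sequence with other genes, so their counts depend on how reads were assigned. The list was drawn up because its members were already known to separate the labels, and their split is a description, with no test.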

How the data were processed

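The authors deposited a table of whole-number counts per gene (55988 mouse features). The 1456 features without a name, with 0.115 to 0.496% of counts, were left out. Per the submitters' processing notes, HISAT2, StringTie, DESeq and mm10 were used, and per the labels' protocols the mRNA libraries were stranded. For versions, the strand setting and the treatment of reads that match several genes, nothing is given in the sources used here.

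All 11 mouse libraries in 4 groups were fitted together with edgeR 4.0.16 (R 4.3.3), using filterByExpr, TMM, the quasi-likelihood F test and Benjamini-Hochberg adjustment over 22371 genes at 0.05. The standard error is the log2 fold change over the square root of F, and CPM uses TMM library sizes. In simulated counts for papilloma against skin (200 changed genes of 21197), 40% of 2-fold and 92% of 4-fold changes were called.

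The members and lists were chosen with earlier results of these data known. Named genes are Dusp1, the 12 largest rises and falls, the 6 lowest p and 3 highest levels in each list, and all DUSP genes and copies. Adipoq, Adm, Car9, Cd5, Flg, Gja1, Hmga1, Krt1, Krt7, Krt8, Krt17, Krt19, Krt77, Lce1m, Runx1, Sprr2a3, Sprr2k, Tnip1, Tslp and Twist1 were chosen after their values were seen. Promoters come from RefSeq (GRCm38.p6) and gene positions from GENCODE M21. DESeq2 1.42.0 and the other alternatives are in the closing section. Some results for single members of the lists are not reported here.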

Additional observations from a re-analysis of the deposited data

How the results depend on the processing

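Papilloma against WT skin gave 8850 genes, and between 6095 and 9641 under the alternatives tried: DESeq2 size factors (RLE), no filter, DESeq2, the replicate block, Y-linked counts as a covariate, the 6 libraries alone, and each replicate left out (7239 to 8855). The number higher (3835) fell to 2546 with the yes or no mark of Y-linked counts as a covariate. The 6 libraries alone, whose spread is not pooled with that of the SCC, gave 7330 genes in either direction. Papilloma against WT SCC (1175) gave 1854 with no filter, 2232 with DESeq2 and 478 to 1100 with a replicate left out. SCC labelled KO against WT SCC (1760) gave 3466 with DESeq2 and 302 to 974 with a replicate left out.

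Deviations from the group means were correlated between papilloma and WT skin samples. Samples with the same replicate number gave -0.046, -0.129 and -0.397, and those with different numbers -0.392 to 0.442. So few pairs cannot settle whether the numbers mark a pairing. With the replicate block, papilloma against WT skin gave 7706 genes, papilloma against WT SCC 803 and SCC labelled KO against WT SCC 795.

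Of 165 named genes past the threshold against WT skin, 156 passed it in the same direction under every alternative that gave a value. Gja1 (-0.03) ranged from -0.30 to 0.59 with a replicate left out, and was called higher without WT skin 3. The hair list had 22 genes lower with no filter, against 4. The median log2 fold change over all genes was -0.22 with TMM and -0.21 with RLE. With 3 libraries a group, 40% of simulated 2-fold changes were called. The simulation changed 200 of 21197 genes, whereas 39.6% of genes were called in the data. The adjusted threshold was therefore stricter in the simulation, and the 40% does not give the share found here. A gene that did not pass may still differ. The counts rest on WT skin libraries that differ in sex and in hair keratins.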
